A study of Mus musculus with 4 samples.

Results

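The genes described here build the lysosome: subunits of its proton pump, proteins of its limiting membrane, its soluble hydrolases and the TFEB family of transcription factors. They were chosen by name, with cathepsin proteases left out. Of 43 listed genes, 42 were among the 18364 genes of the table, and *Atp6v0c* was not analysed here. By class, these were 16 of 17 V-ATPase genes, 7 of 7 membrane protein genes, 3 of 3 TFEB family genes and 16 of 16 hydrolase and precursor genes. RNA was sequenced from large peritoneal macrophages (LPMs), the main resident macrophages of the mouse peritoneal cavity. Cells were gated as F4/80+ CD102+ and negative for MHCII, sorted in 2 rounds and sequenced in bulk. The comparison asked how loss of RXRα, a nuclear receptor, alters LPM transcripts. It set 2 libraries labelled Rxra-KO (genotype Rxra-/-) against 2 labelled WT (wild type), all from C57BL/6 mice aged 8 weeks, with no treatment named. As the study describes it, the deletion was conditional, with Cre recombinase driven by *LysM* (*Lyz2*) and acting on *Rxra* fl/fl alleles. The study's text names *Rxra* fl/fl LPMs as the controls, so both groups carried the floxed alleles. *LysM*-Cre is active in myeloid cells generally and not in LPMs alone. Nothing in the labels says that the libraries came from separate animals, so p-values measure the spread between these libraries. In the fit that spread was largely shared across genes (227 prior against 2 residual degrees of freedom).

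The lysosome is the acidic compartment in which cells digest material taken up from outside and worn parts of their own. Its acidity comes from the V-ATPase, a rotary pump whose V1 sector splits ATP in the cytosol and whose V0 sector carries protons across the membrane. Resident macrophages clear dying cells and microbes, and they are rich in lysosomal enzymes. TFEB, TFE3 and MITF bind E-box sequences near many lysosomal genes and are held in the cytosol by mTORC1 signalling when nutrients are plentiful.

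The E-box CACGTG and its extension TCACGTGA, which contains CACGTG, were searched in RefSeq promoter windows of build GRCm38.p6. Each window held 300 bases, from 250 before to 50 after the start site, and both motifs read the same on either strand. CACGTG was in 7.15% of 32851 windows and TCACGTGA in 0.974%. Windows were found for 36 of the 43 listed genes. These genes, among them *Atp6v0c*, had 45 windows. By window, 11 of the 45 held CACGTG and 5 held TCACGTGA, and by gene the counts were also 11 and 5. At least 4 copies of CACGTG stood in 8 windows of the whole set, or 0.0244%, and the window of *Lamp1* was one of them. The sequences below show stretches of 66 bases from *Lamp1* and *Atp6ap1*, both called higher in the Rxra-KO comparison, and from *Atp6v0b* and *Atp6v1a*, which were not called. They lie at chr8:13159091-13159156 on the plus strand (*Lamp1*), chrX:74297027-74297092 on the plus strand (*Atp6ap1*), chr4:117887334-117887399 on the minus strand (*Atp6v0b*) and chr16:44139356-44139421 on the minus strand (*Atp6v1a*). All are upstream of the RefSeq start site of the window, from -70 to -5 or, for *Atp6v1a*, from -162 to -97. GENCODE M21 places *Atp6v1a* at chr16:44085402-44139705, so by that annotation its stretch lies inside the gene. Capitals mark the motifs.
Lamp1: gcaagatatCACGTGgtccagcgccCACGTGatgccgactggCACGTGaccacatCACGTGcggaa
Atp6ap1: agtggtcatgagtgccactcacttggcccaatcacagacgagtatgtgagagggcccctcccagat
Atp6v0b: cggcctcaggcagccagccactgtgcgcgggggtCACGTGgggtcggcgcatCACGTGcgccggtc
Atp6v1a: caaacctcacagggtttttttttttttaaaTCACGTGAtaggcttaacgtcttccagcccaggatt
*Lamp1* thus had 4 E-boxes in the stretch shown, *Atp6v0b* had 2, *Atp6v1a* had the extended form once and *Atp6ap1* had neither motif anywhere in its window, as was the case for *Laptm5*. No window was given for *Atp6v1c1*. The other genes with CACGTG were *Mcoln1*, *Atp6v0d1*, *Atp6v0e*, *Glb1*, *Naglu*, *Gaa*, *Lgmn* and *Gla*. A match describes letters in a window and not a bound site.

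The libraries were shallow. The deposited table held a normalised signal, and the whole reads behind it numbered 652542 and 947372 in WT and 629030 and 1047021 in the libraries labelled Rxra-KO. A signal of 0.993 to 1.51 corresponded to 1 read, depending on the library, so the unit is close to CPM. *Rxra*, the targeted gene, was read 20 and 28 times in WT and more often, 33 and 77 times, in the libraries labelled Rxra-KO, against the direction of the labels (log2 fold change 0.99, adjusted p = 0.183). The counts cover the whole gene, so they do not show whether a floxed part is missing. *Lyz2*, from whose locus Cre is expressed, fell from 9420 and 10684 reads to 4241 and 6272 (log2 fold change -1.03, adjusted p = 0.00163). Of the LPM markers in the table, 9 of 11 were called lower. The summed signal of the 11 went from 35420 and 37360 in WT to 17800 and 19360. Most of that sum was *Prg4*, at 28430 and 29680 in WT and 15130 and 16570 in the libraries labelled Rxra-KO. *Adgre1*, which encodes F4/80, was not analysed here. All 7 genes of small peritoneal macrophages (SPMs), which the study named on these libraries, were called higher, with sums of 366 and 109 against 4329 and 5806. *Cd209d* and *Clec4b1* of that list had no read in either WT library. Markers were also analysed for monocytes (4 of 4 listed), dendritic cells (6 of 6), B cells (5 of 7), T cells (4 of 6) and neutrophils (2 of 6). Others were for eosinophils (2 of 4), mast cells (5 of 6), mesothelial cells (5 of 6) and erythroid cells (1 of 4). Each of these sets summed to between 2.26 and 124 in any library, with the absent markers unseen. Dendritic cell markers summed to 46.9 and 55.3 in WT and to 99.4 and 124 in the libraries labelled Rxra-KO. Mast cell and mesothelial sums were lower without overlap, and those of the other sets overlapped. Over all these sets, *Cd209a* (dendritic cells) and *Cd2* (T cells, no read in WT) were called higher. The part of these marker shifts in the lysosomal results was not tested. In bulk RNA, fewer cells of a type and less RNA per cell cannot be told apart.

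Calls among the lysosomal genes fell on the pump and on membrane proteins, and no TFEB family or hydrolase gene was called. A call here means a limma adjusted p below 0.05 together with a log2 fold change of 0.6 or more in either direction. *Lamp1*, *Atp6ap1* and *Atp6v1c1* were called higher, and *Laptm5* was called lower. The 4 called genes were 9.52% of the 42 in the table, whereas 2.29% of all genes were called (1.32% higher, 0.969% lower). The lysosomal genes were read more deeply than most, and among genes with a mean of at least 10 reads, as 40 of the 42 had, 4.6% were called. Without WT replicate 2, 2 of the 42 genes were called, without Rxra-KO replicate 1 only *Lamp1* was, and without Rxra-KO replicate 2, 2 were. DESeq2 called *Lamp1* and *Laptm5* alone. An unadjusted p under 0.05 was found for 11 genes, or 26.2%, beside 10.1% of all genes and 15.2% of those with a mean of at least 10 reads. The median log2 fold change was 0.25, beside 0.02 for all genes. Both libraries labelled Rxra-KO lay above both WT libraries for 17 genes and below them for 5, where the shares of all genes were 18.8% and 19.3%. *Lamp1*, *Atp6ap1*, *Atp6ap2* and *Atp6v1c1* are named in the text of the study as increased, on these same libraries, so their direction is not independent evidence. The study also reports qPCR of protein transport genes and stronger LysoTracker staining, both in LPMs of mice with *Rxra* and *Rxrb* deleted. Those measurements are not part of these libraries. Without these 4 genes, 1 of 38 was called and the median was 0.17.

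**Figure D1:**
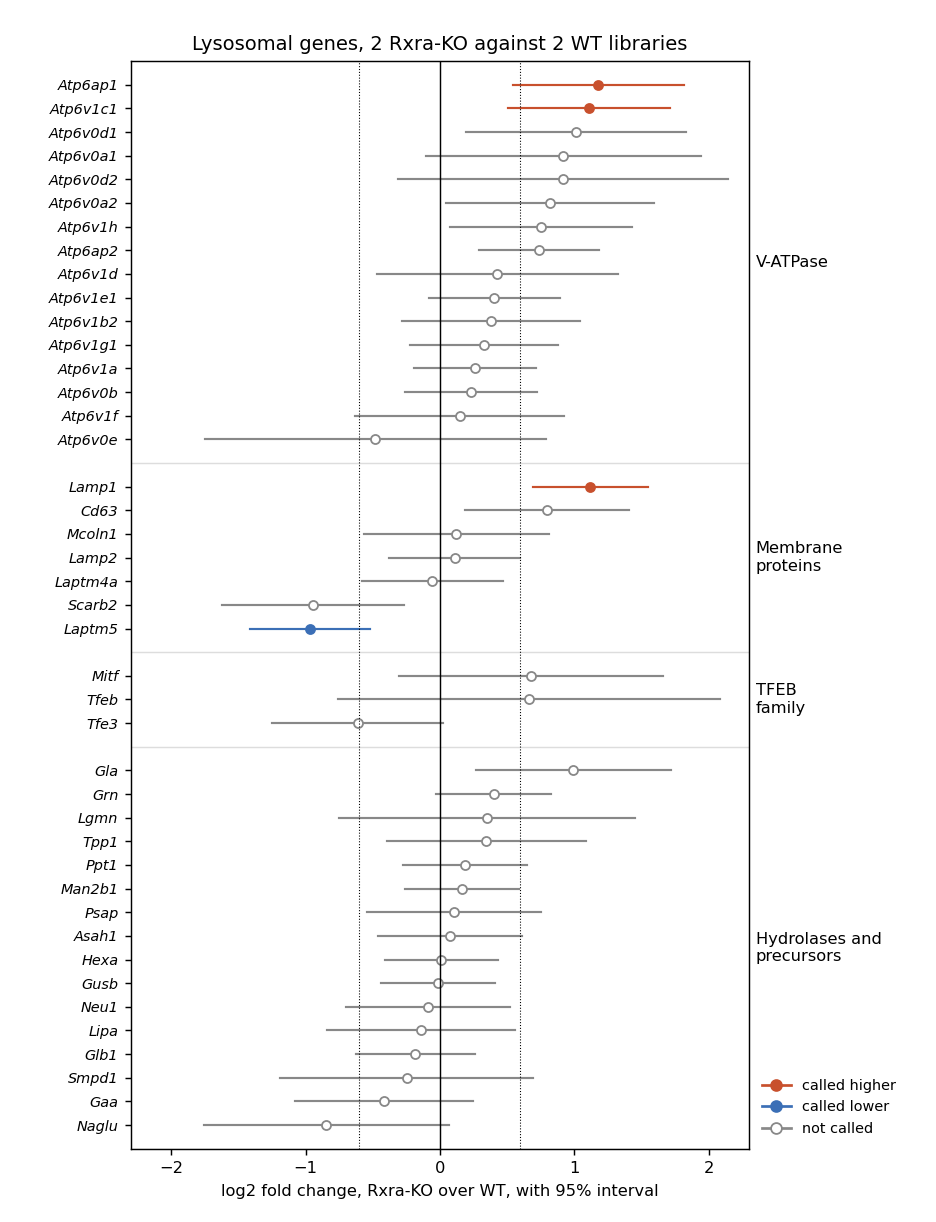
Log2 fold change of the 42 lysosomal genes (horizontal axis, libraries labelled Rxra-KO over WT, 2 against 2, on the log2(signal + 1) scale), grouped by class. Points are limma estimates, bars their 95% intervals, dotted lines mark 0.6 in either direction, and filled points were called: 3 higher and *Laptm5* lower. V-ATPase genes sit to the right of 0 except *Atp6v0e*, whereas hydrolase genes lie on both sides.

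The V-ATPase genes lay mostly on the higher side in the libraries labelled Rxra-KO. The log2 fold change was above 0 for 15 of 16, where 51.15% of all genes were above 0, and its median was 0.58. Of the 16, 2 were called (12.5%, beside 2.29% of all genes and 4.6% of those with a mean of at least 10 reads). Both libraries labelled Rxra-KO were above both WT libraries for 9 genes, and the groups overlapped for the other 7. Such a separation held for 18.8% of all genes and for 2009 of the 8850 with a mean of at least 10 reads. Of the 15 genes above 0, *Atp6v1d* and *Atp6v1f* turned to below 0 with 1 library left out. The summed signal of the 16 genes was 1485 and 1367 in WT and 2129 and 1966 in the libraries labelled Rxra-KO, which is 1.44-fold higher (1426 ± 83.7 against 2048 ± 115, SD, n = 2). This sum includes genes that the study names as increased on these libraries. Without those genes, 12 of 13 remained on the higher side and the median was 0.40. None of the 13 was called by limma, while 3 had an unadjusted p under 0.05.

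In the V0 sector, *Atp6v0d1*, the subunit that joins V0 to the central stalk, had a signal of 28.0 and 15.7 in WT and 45.9 and 41.2 in the libraries labelled Rxra-KO. The groups did not overlap, on 14 to 41 reads a library, and the log2 fold change was 1.01 ± 0.42 (SE) with an adjusted p of 0.286. *Atp6v0a2*, a form of the large subunit that lines the proton path, had 28.0 and 24.4 in WT and 53.5 and 41.2 in the others. Again both WT values were below both others, with a log2 fold change of 0.82 and an adjusted p of 0.436. A transcript antisense to *Atp6v0a2*, *4930404A12Rik*, overlaps 9.86% of its exon bases, and the library kit keeps no strand. *Atp6v0a1*, another form of the large subunit, was at 11.4 and 14.7 in WT and at 14.3 and 44.2 in the libraries labelled Rxra-KO, so its high value came from 1 library. *Tcirg1*, a further form outside the listed genes, went the other way. It was at 56.8 and 51.5 in WT and at 33.9 and 50.2 in the libraries labelled Rxra-KO (log2 fold change -0.38, adjusted p = 0.831). *Atp6v0d2*, the counterpart of *Atp6v0d1*, ranged from 5.30 to 23.3 and overlapped between groups. *Atp6v0b*, a proton-binding ring subunit, was the highest of the 6 V0 genes analysed, which leave out *Atp6v0c*. It was at 184 ± 13.3 signal per kilobase in WT and 217 ± 16.3 in the libraries labelled Rxra-KO (SD, n = 2). *Gm12841*, antisense to *Atp6v0b*, overlaps 11.85% of its exon bases. *Atp6v0e* was the only V-ATPase gene with a negative log2 fold change, -0.48 with an adjusted p of 0.918, on 4 to 11 reads a library. V0 genes as a set summed to 1.36-fold higher signal, with a median log2 fold change of 0.87 over 6 genes and none called. By unadjusted p, 2 of the 6 were under 0.05.

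In the V1 sector, all 8 genes had a log2 fold change above 0, with a median of 0.39. *Atp6v1c1*, a stator subunit that holds V1 to V0, had a signal of 46.2 and 58.0 in WT and 118 and 108 in the libraries labelled Rxra-KO. Its groups were well apart, at 2.17-fold (log2 fold change 1.11 ± 0.31 SE, adjusted p = 0.0196). The call was lost without WT replicate 1 (adjusted p = 0.225), Rxra-KO replicate 1 (0.323) or Rxra-KO replicate 2 (0.131) and in DESeq2 (0.137), over a range of 0.00677 to 0.548 in all alternatives. *Atp6v1h*, the regulatory subunit that couples ATP splitting to rotation, was at 46.2 and 34.2 in WT and 79.1 and 58.1 in the others. These did not overlap either, with a log2 fold change of 0.76 ± 0.34 (SE) and an adjusted p of 0.386. *Atp6v1a* and *Atp6v1b2*, which form the ATP-splitting ring, differed less, with log2 fold changes of 0.26 and 0.38 and adjusted p-values of 0.820 and 0.821. The stalk subunits *Atp6v1d*, *Atp6v1e1*, *Atp6v1f* and *Atp6v1g1* ranged from 0.15 to 0.43. The V1 sum went from 801 and 778 in WT to 1084 and 1009, or 1.33-fold.

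The accessory proteins gave the largest ratio of the pump, at 1.73-fold for their sum. Both of these genes are named in the study as increased on these same libraries, so this rank is not independent evidence. *Atp6ap1* (Ac45), which helps assemble V0, was read 34 and 31 times in WT, compared with 64 and 97 times in the libraries labelled Rxra-KO, a signal of 52.2 and 34.2 against 97.1 and 96.8. The libraries labelled Rxra-KO were nearly equal and the WT libraries were apart from each other. The log2 fold change was 1.18 ± 0.32 (SE) with an adjusted p of 0.0176. This call was lost without WT replicate 2 (log2 fold change 0.88, adjusted p = 0.399), without Rxra-KO replicate 1 (0.236) or replicate 2 (0.190) and in DESeq2 (0.154), within a range of 0.00675 to 0.544 over all alternatives. *Atp6ap2*, known also as the (pro)renin receptor, had a signal of 367 and 285 in WT and 576 and 506 in the others. The groups were apart, at 1.66-fold, with a log2 fold change of 0.74 ± 0.23 (SE) and an adjusted p of 0.0543, just short of a call. It was called with library size scaling (adjusted p = 0.0318) and with voom (0.0238), and the range over alternatives was 0.00533 to 0.693. The study's own limma fit of these libraries lists *Atp6ap2* as raised, at an adjusted p under 0.05.

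**Figure D2:**
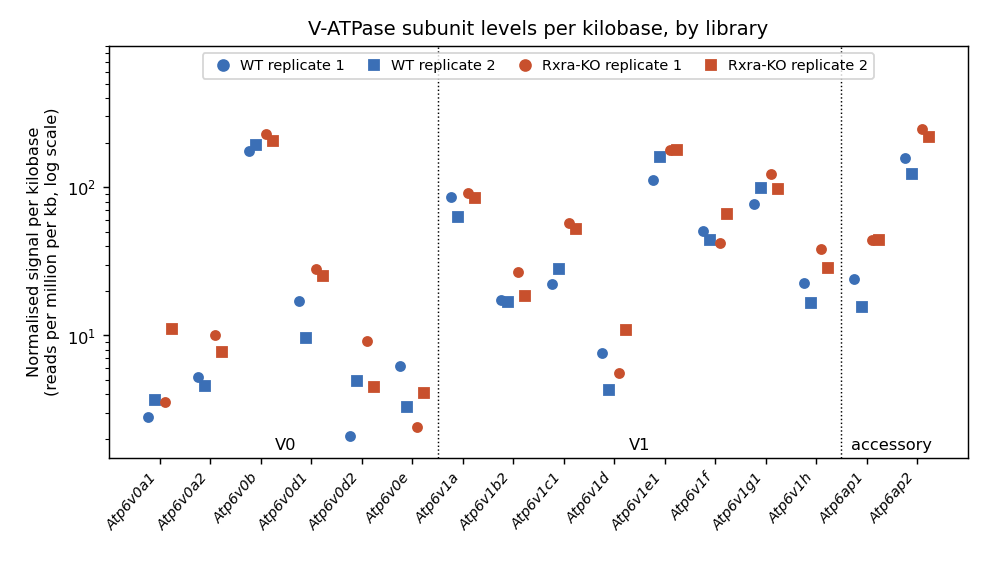
Normalised signal per kilobase of transcript (log scale) of the 16 V-ATPase genes in each of the 4 libraries, WT in blue and libraries labelled Rxra-KO in orange, with circles for replicate 1 and squares for replicate 2. *Atp6v0b*, *Atp6v1e1* and *Atp6ap2* are the highest genes, and *Atp6v0a1*, *Atp6v0d2* and *Atp6v0e* lie lowest with their libraries widely spread.

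Among membrane proteins, *Lamp1* and *Laptm5* moved in opposite directions. *Lamp1*, a heavily glycosylated protein that coats the inner face of the lysosomal membrane, had a signal of 506.5 and 524.5 in WT and 1163 and 1081 in the libraries labelled Rxra-KO. Replicates lay close together and the groups were far apart, at 2.18-fold (log2 fold change 1.12 ± 0.22 SE, adjusted p = 7.05e-05). It was called without each library in turn, with log2 fold changes of 1.07 to 1.17. Its adjusted p ranged from 1.83e-08 to 0.542 over the alternatives, and it lost the call only where the trend was dropped from the limma fit. *Lamp1* lies at chr8:13159161-13175338 on the plus strand of GRCm38 and shares 9.31% of its exon bases with *Grtp1* on the other strand, which had 2 to 12 reads a library. *Lamp2*, its paralogue, was at 210 and 188 in WT and 195 and 236 in the others, and the groups overlapped (log2 fold change 0.11, 95% interval -0.38 to 0.60). *Laptm5*, a lysosomal membrane protein of blood cells, had a signal of 509.5 and 674 in WT and 264 and 339 in the libraries labelled Rxra-KO. It fell in both, to 0.510 of the WT mean (log2 fold change -0.97 ± 0.23 SE, adjusted p = 0.00239). The call was lost without WT replicate 2 (-0.77, adjusted p = 0.326) and without Rxra-KO replicate 1 (-0.79, adjusted p = 0.119), and the range over alternatives was 3.30e-05 to 0.603. *Laptm5* lies at chr4:130913125-130936141 and shares no stretch of 31 bases with another gene. Its relative *Laptm4a* was at 132.5 and 139 in WT and at 117 and 146.5 in the others, with overlap.

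*Scarb2* (LIMP-2), the receptor that carries glucocerebrosidase to the lysosome, had a signal of 75.0 and 67.8 in WT and 36.9 and 36.3 in the libraries labelled Rxra-KO. Values within each group were close and the groups were apart, but with 24 to 62 reads a library the adjusted p was 0.173 (log2 fold change -0.94 ± 0.34 SE). *Cd63*, a tetraspanin of late endosomes and lysosomes, was at 82.5 and 40.7 in WT and 120 and 85.9 in the others. The upper WT value nearly reached the lower of the others, and the log2 fold change was 0.80 ± 0.31 (SE, adjusted p = 0.238). It was called without WT replicate 1 (1.30, adjusted p = 0.0339), while the adjusted p went up to 0.9999 in other alternatives. Of its 31-base stretches, 48.1% are shared with the pseudogene *Cd63-ps* and other genes, so its reads could be split. *Mcoln1*, a lysosomal calcium channel and a known TFEB family target, had a log2 fold change of 0.12 with overlapping groups. Over the 7 membrane proteins, 4 were on the higher side, and the median of 0.11 turned to -0.02 without WT replicate 2 and to -0.03 without Rxra-KO replicate 2. Their summed signal was 1577 and 1672 in WT and 1946 and 1979 in the libraries labelled Rxra-KO, and *Lamp1* decided its direction. Without *Lamp1*, the other 6 genes summed to 1070 and 1148 in WT and to 783 and 898 in the libraries labelled Rxra-KO, or 0.758 of WT.

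**Figure D3:**
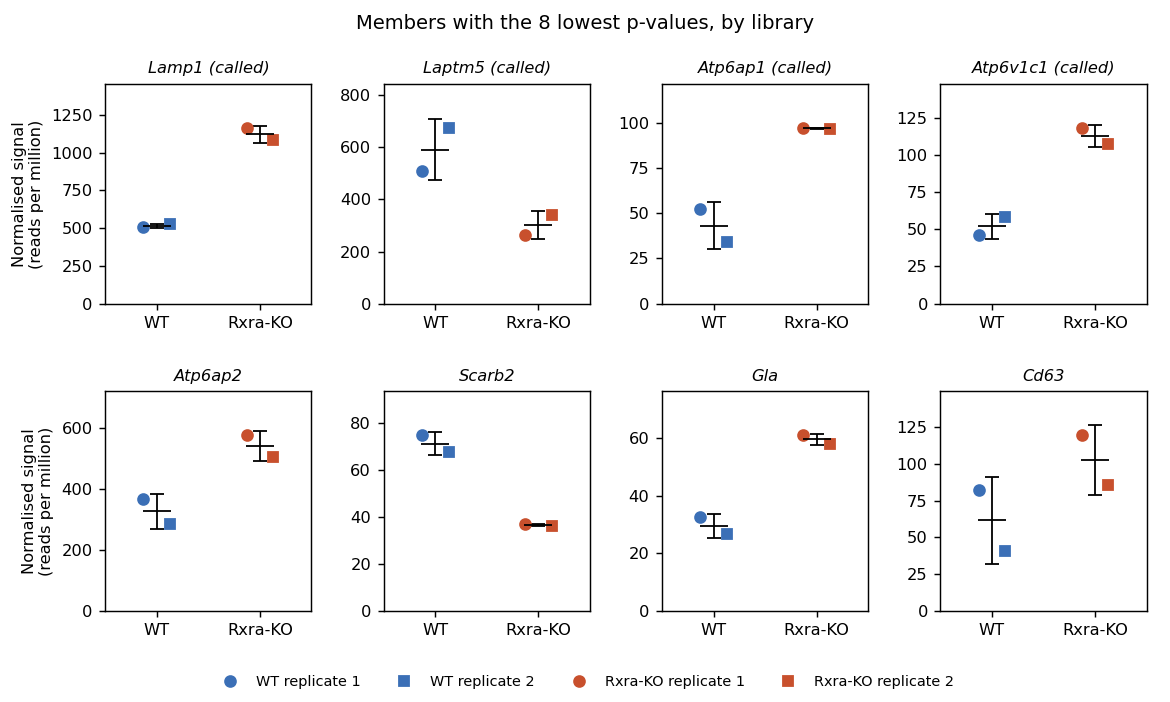
Normalised signal (vertical axes, close to CPM, each starting at 0) in each library for the 8 lysosomal genes with the lowest p-values, with the mean and SD of each group (n = 2) in black. The groups do not overlap in any panel, with the libraries labelled Rxra-KO below WT for *Laptm5* and *Scarb2* and above it elsewhere, and the 4 called genes are marked.

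No TFEB family gene was called by limma, and there was no unadjusted p under 0.05 among them. *Tfe3* had 36 to 65 reads a library, *Mitf* 8 to 28 and *Tfeb* 4 to 11. *Tfe3* had a signal of 99.2 and 64.6 in WT and 55.0 and 49.2 in the libraries labelled Rxra-KO, so both of the latter were below WT (log2 fold change -0.61 ± 0.32 SE, adjusted p = 0.521). *Mitf* had 12.9 and 17.9 in WT and 21.8 and 28.3 in the others, both above WT (0.68 ± 0.50, adjusted p = 0.747). *Tfeb* itself had 4 reads in each WT library and 5 and 11 in the others (0.66 ± 0.72, adjusted p = 0.875). Per kilobase, *Tfe3* was the highest of the family in WT, at 24.98 ± 7.47, beside 3.15 ± 0.73 for *Mitf* and 2.55 ± 0.59 for *Tfeb* (SD, n = 2). These are transcript levels and give no view of where the proteins sit in the cell.

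The hydrolases and precursor proteins had the highest summed signal of the classes and the ratio nearest to 1. Their 16 genes summed to a signal of 5083 and 5029 in WT and 5313 and 5393 in the libraries labelled Rxra-KO, or 1.06-fold (5056 ± 37.8 against 5353 ± 56.3, SD, n = 2). The sum is weighted towards abundant genes such as *Hexa* and *Gusb*. The log2 fold change was above 0 for 9 of 16 (56.25%, beside 51.15% of all genes) and the median was 0.04. None was called by limma, with 1 unadjusted p under 0.05. *Hexa*, the α chain of β-hexosaminidase, was the highest of the 42 genes per kilobase in both groups. It was at 767 ± 30.5 in WT and 772 ± 47.4 in the others. *Tmem202* on the other strand overlaps 12.78% of its exon bases. *Hexa* had 979 to 1619 reads a library, and the 95% interval of its log2 fold change, -0.41 to 0.43, was the narrowest of the 42. *Gusb*, β-glucuronidase, was likewise at 791 and 888 in WT and 824 and 838 in the others (95% interval -0.44 to 0.41). *Glb1*, *Man2b1* and *Neu1*, which remove galactose, mannose and sialic acid, had log2 fold changes of -0.18, 0.16 and -0.09.

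The class had its extremes among low genes. *Gla*, α-galactosidase A, had a signal of 32.6 and 26.6 in WT and 61.0 and 58.1 in the libraries labelled Rxra-KO. The groups were apart on 21 to 58 reads, with a log2 fold change of 0.99 ± 0.37 (SE) and an adjusted p of 0.191. *Naglu*, which degrades heparan sulfate, lay the other way, at 28.0 and 35.3 in WT and 15.8 and 18.4 in the others (-0.85 ± 0.46, adjusted p = 0.556). The lipid hydrolases *Asah1*, *Smpd1*, *Ppt1* and *Lipa*, which act on ceramide, sphingomyelin, protein palmitate and cholesteryl esters, overlapped between groups in every case, with log2 fold changes of -0.25 to 0.18. *Grn*, the precursor of granulins, was at 679 and 592 in WT and 881.5 and 796 in the others, which did not overlap (0.40, 95% interval -0.03 to 0.83). *Psap*, the precursor of the saposins that present lipids to these enzymes, was far lower than *Grn* per kilobase, at 22.2 ± 5.24 against 271.5 ± 26.4 in WT. The reference behind the reads is not settled, so such comparisons between genes are uncertain. The proteases *Lgmn* and *Tpp1* had 11.75 and 36.75 reads on average. Directions are weak in this class, since those of *Gaa*, *Hexa*, *Gusb*, *Psap*, *Asah1*, *Smpd1*, *Tpp1*, *Ppt1* and *Lipa* turned when 1 library was left out.

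**Figure D4:**
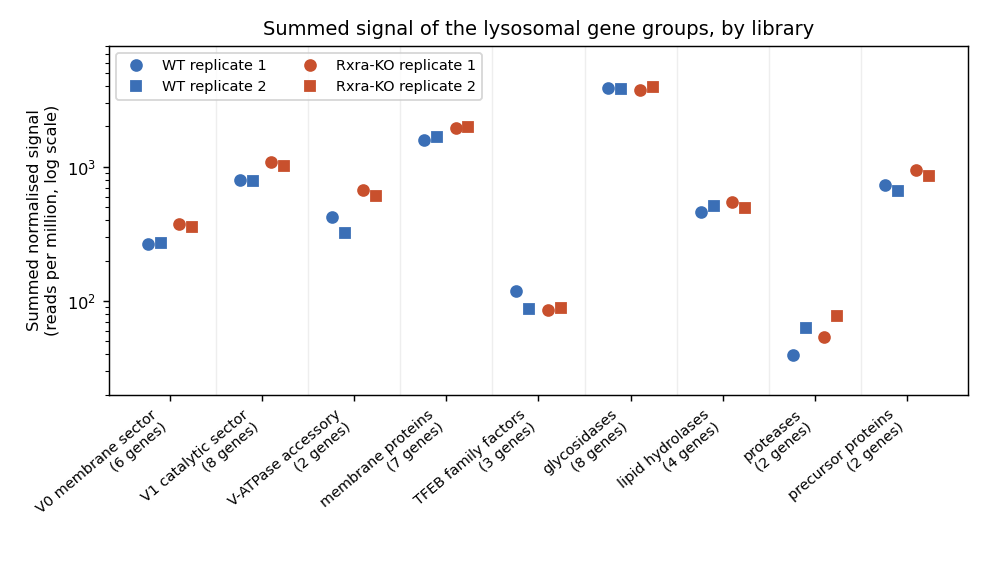
Summed normalised signal (log scale, close to CPM) of the lysosomal gene groups in each of the 4 libraries, WT in blue and libraries labelled Rxra-KO in orange. The libraries labelled Rxra-KO lie above WT in all parts of the V-ATPase and in the membrane proteins, where the order turns without *Lamp1* (1109 in WT against 840), and the glycosidases, with the highest sums, overlap.

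Of 103 lysosome genes outside this set in the table, out of 105 listed, 1 was called (0.971%, beside 2.29% of all genes and 4.6% of those with a mean of at least 10 reads). An unadjusted p under 0.05 was found for 13 of them (12.6%, beside 10.1% and 15.2%). *Naaa*, an acid amidase that breaks down fatty acid ethanolamides, was read 37 and 60 times in WT, compared with 77 and 152 times in the others. It rose 2.19-fold (log2 fold change 1.11 ± 0.29 SE, adjusted p = 0.0118), and it too is named in the text of the study. The call was lost without WT replicate 1 (adjusted p = 0.141), WT replicate 2 (0.0521) or Rxra-KO replicate 2 (0.366) and in DESeq2 (0.0870), within a range of 0.00318 to 0.550 over all alternatives. The log2 fold change was above 0 for 68 of the 103, with a median of 0.16. By list, that held for 20 of 23 other membrane proteins and transporters (median 0.26), 19 of 31 other hydrolases and activators (0.19), 9 of 13 genes of mannose 6-phosphate tagging and sorting (0.14) and 14 of 20 genes of the Ragulator, the Rag GTPases and TFEB control (0.28). The 16 other V-ATPase genes, which are further subunit forms and assembly factors, leaned the other way with 6 above 0 and a median of -0.13. They were also read less, with a median of 9.25 reads against 43.5 for the V-ATPase genes described above. *Tcirg1* among them was better read, with 22 to 50 reads a library, and also lay below 0.

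**Figure D5:**
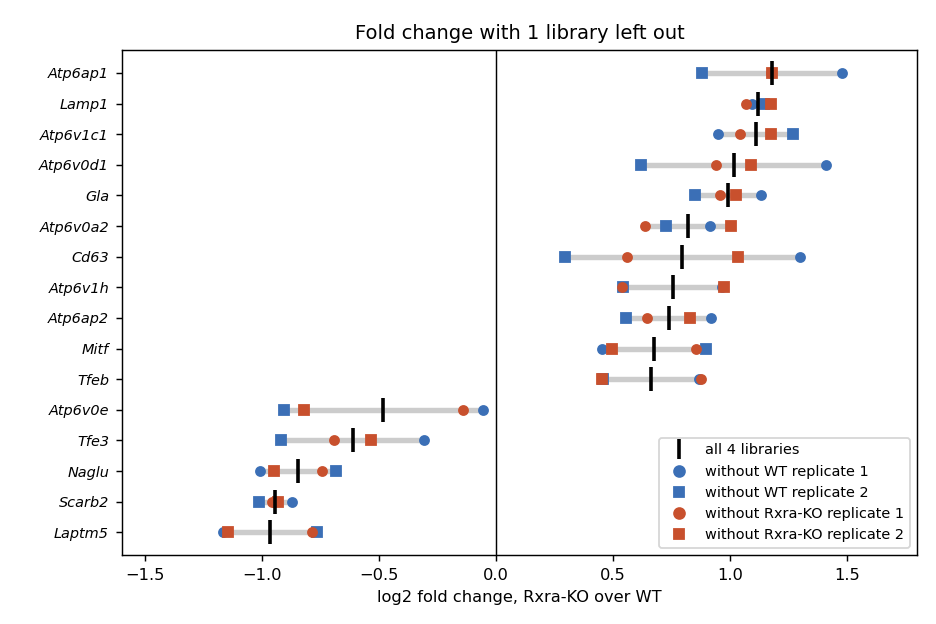
Log2 fold change (horizontal axis, libraries labelled Rxra-KO over WT) of the 16 lysosomal genes named by the rule, with all 4 libraries (black bars) and with each library left out in turn (coloured points, joined by a grey band). None of the 16 crosses 0, but most were picked for a call, a low p or an extreme, and genes outside them did cross 0. *Lamp1* and *Scarb2* have the narrowest bands, and *Cd63* spans 0.29 to 1.30.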

How the data were processed

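LPMs were sorted in 2 rounds, to a stated purity of 99%, and libraries were made from bulk RNA with a SMART-Seq v4 kit, which amplifies full-length cDNA and records neither strand nor molecular identifiers. Per the labels and methods, the authors quantified transcripts with kallisto 0.43.0, summarised them by gene with tximport, filtered low genes and scaled with TMM in limma. The labels name a human build, GRCh38, for these mouse libraries, so which reference gave the reads is not settled. The deposited values are a normalised signal, (reads + 0.5) over the TMM-scaled library size, in CPM, and not counts. Whole reads came back from 100% of values within 0.01 reads, and TMM with voom on those reads gave the table again within a relative 9.94e-10. The study left out RNA-seq samples that did not cluster with their group.

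Groups follow the sample titles. The columns are numbered 2 and 3 where titles have 1 and 2. Each gene was fitted with limma 3.58.1 (R 4.3.3) on log2(signal + 1), with an empirical Bayes mean-variance trend, no covariate, two-sided tests and Benjamini-Hochberg adjustment over 18364 genes. Fold changes on this scale understate changes of low genes. A filter of a value of 1 in 2 libraries removed 0 genes. An exact permutation test of 2 against 2 cannot go below p = 0.333, so adjusted p-values rest on the spread shared across genes (227 prior against 2 residual degrees of freedom). The code was tested on simulated data. Alternatives were edgeR 4.0.16, DESeq2 1.42.0 and voom on the recovered reads, other pseudocounts, filters and scalings, a replicate block and leaving out each library.

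Genes named are those called, those with an unadjusted p under 0.05, the extremes of each class and the TFEB family. For context on each class, further members with fewer values and *Tcirg1* are named, chosen after their values were seen. The members and all lists were chosen with earlier results of these data known. Levels per kilobase use 1 GENCODE M21 transcript a gene, which may differ from the reference that gave the reads, so rankings between genes are uncertain. Intervals cover 95%. SDs are over 2 libraries.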

Additional observations from a re-analysis of the deposited data

How the results depend on the processing

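Of 255 pairs of 1 of the 16 genes named by the rule and an alternative, 235 kept their direction and their side of the threshold. In 16 pairs the call was lost, in 4 it was gained and in 0 the sign changed. For a gene not called, keeping its side means staying uncalled. Most of these genes were picked for a call, a low p or an extreme, so the count does not describe the whole set. Outside them, *Lamp2*, *Laptm4a*, *Mcoln1*, *Atp6v1d*, *Atp6v1f* and the hydrolase genes listed above changed sign with 1 library left out. Over all genes, 421 calls became 0 without the mean-variance trend (1579 with an unadjusted p under 0.05), 246 with DESeq2 and 191 with DESeq2 without independent filtering, an alternative chosen after seeing the data, as were leaving out the genes the study names and the membrane sum without *Lamp1*. Leaving out 1 library gave 236 (without WT replicate 2) to 377 calls, with 244 without Rxra-KO replicate 1, from fits in which the lone library of a group is assumed to vary like the other group. Calls among the lysosomal genes went from 4 to 0 without the trend (4 with an unadjusted p under 0.05), 2 with DESeq2, with or without independent filtering, 2 at an adjusted p under 0.01, 1 without the 4 genes named by the study and 1 to 4 with 1 library left out. The 4 without WT replicate 1 shared 3 genes with those from all libraries, with *Cd63* in place of *Atp6v1c1*. For the other lysosome genes, the 1 call became 0 without the trend (6 with an unadjusted p under 0.05), with DESeq2 with or without independent filtering (7 with an unadjusted p under 0.05), at an adjusted p under 0.01, and 0 to 1 with 1 library left out. *Naaa* lost its call without WT replicate 1, WT replicate 2 or Rxra-KO replicate 2. edgeR and voom gave 446 and 422 calls over all genes. The TFEB family median was 0.031 with genes of a mean value of at least 10, which leaves out *Tfeb*, and the hydrolase median lay between -0.065 (without WT replicate 1) and 0.11 with 1 library left out. Scaling moved the median of all genes to between -0.0015 and 0.04. For other changed values the cause was not tested.

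Whether same-numbered libraries were paired is not known. Their read totals were alike, 652542 and 629030 for replicate 1 and 947372 and 1047021 for replicate 2. Their deviations from the group means correlated at 0.0635 over 8850 genes, which with 2 libraries a group does not settle pairing. With the replicate number as a block, calls over all genes were 540, those among the lysosomal genes were 5, with *Atp6ap2* added (adjusted p = 0.00533), and those among the other lysosome genes were 1.

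Depth limits the low genes most. *Tfeb* had 4 to 11 reads a library and a 95% interval of its log2 fold change from -0.76 to 2.08, and *Atp6v0e* one from -1.75 to 0.79, so that a doubling lies within or near either interval.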
